A study of Mus musculus with 6 samples.

Results

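Expression of 9 genes of the Hedgehog pathway was examined in Tmem161a-KO and WT osteoblastic cells. The genes were Ihh, Ptch1, Hhip, Smo, Sufu, Kif7, Gli1, Gli2 and Gli3. They were chosen by symbol, with no threshold on their values, and each stood on 1 of the 19571 rows that carry a gene symbol on the arrays. The Tmem161a-KO cells were a single line grown by limited dilution from MC3T3-e1, an osteoblastic line from mouse calvaria, after CRISPR/Cas9 editing had left small deletions in Tmem161a. The WT cells were MC3T3-e1 cells named as WT, and whether they too had been transfected or cloned is not stated. RNA from 3 samples of Tmem161a-KO cells and 3 samples of WT cells was read on single-colour Clariom S mouse arrays, and no other treatment is named in the labels. The sources used here give neither the culture time nor the medium at RNA extraction, and they do not say whether the samples were separate cultures. The p-values thus measure the spread among these samples alone, and that spread may be technical. With 1 edited line, an effect of Tmem161a and a property of that line cannot be told apart.

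Hedgehog signaling is switched on when a secreted ligand binds PTCH1, a membrane protein that otherwise holds SMO inactive. Active SMO gathers in the primary cilium, a single antenna-like projection of the cell, and frees the GLI transcription factors from SUFU, which retains them in the cytoplasm. GLI2 acts mostly as an activator and GLI3 mostly as a repressor, whereas Gli1, Ptch1 and Hhip are themselves target genes, so that their transcripts are commonly used as readouts of pathway activity. In the growth plate, Indian hedgehog (IHH) is made by chondrocytes and acts on neighbouring perichondrial cells, where it is needed for osteoblasts to form in bones that arise from cartilage.

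Promoter sequences were taken from RefSeq (GRCm38.p6), which matched 8 of the 9 genes, all but Gli1. The windows run 5′ to 3′, with 250 bases before the start site and 50 after it. They are shown for Ptch1, a readout of the pathway with an almost equal level in both groups, and for Sufu, the gene with the largest difference among the 9. Capitals mark GC boxes (GGGCGG on either strand, CCGCCC when read on the strand shown) and CCAAT boxes (CCAAT on either strand).
Ptch1 (chr13:63565686-63565985, minus strand): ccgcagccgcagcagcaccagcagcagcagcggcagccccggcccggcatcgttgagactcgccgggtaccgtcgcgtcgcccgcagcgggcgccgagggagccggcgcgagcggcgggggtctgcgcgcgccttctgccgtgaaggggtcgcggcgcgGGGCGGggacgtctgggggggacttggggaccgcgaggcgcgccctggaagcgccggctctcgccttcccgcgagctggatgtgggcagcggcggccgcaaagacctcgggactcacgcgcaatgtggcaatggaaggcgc
Sufu (chr19:46396646-46396945, plus strand): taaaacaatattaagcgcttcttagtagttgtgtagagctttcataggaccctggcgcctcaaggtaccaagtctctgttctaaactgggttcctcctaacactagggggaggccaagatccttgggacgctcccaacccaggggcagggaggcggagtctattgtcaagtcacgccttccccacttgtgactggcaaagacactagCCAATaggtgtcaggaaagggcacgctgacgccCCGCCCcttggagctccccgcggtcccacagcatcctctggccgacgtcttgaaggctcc
The Ptch1 window was 76.3% G or C and held 1 GC box, which began at position -91 from the start site. The Sufu window was 56.3% G or C and held 1 GC box at -10 and 1 CCAAT box at -43. A GC box was found in 7 of the 8 windows and in 35.7% of 32851 RefSeq promoter windows of the same length, and a CCAAT box in 1 of 8 and in 37.4%. The GLI recognition sequence GACCACCCA, searched on both strands, was in none of the 8 windows and in 0.253% of all windows. These matches describe letters only, and sites farther from the start were not examined.

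The linear, normalized intensities that were deposited were put on the log2 scale and compared with limma over all 19571 named rows. A gene counted as called, higher or lower in Tmem161a-KO cells, where its Benjamini-Hochberg adjusted p was under 0.05. By this rule 9.91% of the rows were called, 1122 (5.73%) higher and 817 (4.17%) lower, a split that became 1619 and 614 after median centring of the arrays. The arrays carry no detection call, so the 1091 olfactory receptor rows served as a measure of background, with a 95th percentile at an intensity of 100.1 (6.65 on the log2 scale). Among the 12914 rows whose brighter group lay above that percentile, 14.3% were called. On chromosome 14, 32.9% of 689 rows were called higher, and on chromosome 17 82 of 964 rows were called lower and 12 higher, whereas 4.93% of the rows on the other chromosomes were called higher. None of the 9 Hedgehog genes lies on chromosome 14 or 17. Tmem161a itself had intensities of 936, 1001 and 963 in Tmem161a-KO cells, against 1155, 1061 and 1229 in WT cells (log2 difference -0.25, adjusted p = 0.192 from limma). Small deletions need not lower a transcript, so this value checks neither the labels nor the knockout. Of 12 measured osteoblast markers 8 lay above background in both groups, whereas Alpl, Ibsp, Phex and Dmp1 lay below it in both. Chondrocyte, adipocyte, myoblast and macrophage markers lay above background in both groups for 7 of 13, 2 of 8, 3 of 8 and 2 of 8 genes, and Adipoq and Myod1, which mark adipocytes and myoblasts, lay below it on all 6 arrays. Ptprc, a gene of all leukocytes, lay close to it, with 2 of 6 arrays above. Of the 12 osteoblast markers 6 were positive and 6 negative, with a median log2 difference of -0.035. Sp7 (2.27), Msx2 (1.38) and Dlx5 (1.15) rose, whereas Bglap (-0.30), Bglap2 (-0.26) and Col1a1 (-0.16) did not pass. Of the 13 chondrocyte markers 12 were negative, with a median of -0.23 beside -0.014 over all rows. Among the negative ones, Col10a1, Matn1, Matn3, Hapln1 and Cnmd lay below background in both groups. Acan, Col9a1, Comp and Snorc were among the 4893 rows from 6.07 to 7.88 on the log2 scale, whose median log2 difference was -0.10. Col2a1 (-0.82) and Col11a2 (-0.51) fell, and Sox9 was positive (0.41, adjusted p = 0.0954 from limma). Col11a2 lies on chromosome 17, and the part of the many lower rows there in its value was not tested. Summed levels of a list are carried by few rows. Sox9 made up 77.3% to 82.9% of the chondrocyte sum in Tmem161a-KO cells and 64.7% to 72.1% in WT cells, and that sum ran from 12596 to 16139 in Tmem161a-KO cells and from 11924 to 14719 in WT cells. The osteoblast sum, led by Sparc, ran from 731072 to 778392 in Tmem161a-KO cells and from 769410 to 777296 in WT cells. The macrophage sum ran from 2253 to 2778.5 in Tmem161a-KO cells and from 3000 to 3150 in WT cells, and Ctsk alone, which did not pass, was 75.0% to 81.6% of it in Tmem161a-KO cells and 79.7% to 82.1% in WT cells. In that list Acp5 and Ctsk lay above background, whereas Ptprc, Csf1r, Adgre1, Tyrobp, Fcer1g and Itgam did not in either group mean. The sum is therefore not read as a level of macrophages. The adipocyte sum ran from 1081 to 1153 in Tmem161a-KO cells and from 1233 to 1308 in WT cells, and Lpl, which fell by 0.45 on the log2 scale, was 43.5% to 46.0% of it in Tmem161a-KO cells and 51.3% to 56.7% in WT cells. The myoblast sum, in which no gene was called, ran from 758 to 836 in Tmem161a-KO cells and from 887 to 923 in WT cells. Myog, its leading row, was 28.6% to 31.1% of it in Tmem161a-KO cells and 26.7% to 34.5% in WT cells. Myod1, Myf5, Des, Cdh15 and Myh3, which also enter that sum, lay below background in both groups. Many rows of these lists were dim. How far the shift of -0.10 among rows from 6.07 to 7.88 on the log2 scale entered the marker values and sums was not tested. The part of these markers in the values of the Hedgehog genes was not tested.

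None of the 9 Hedgehog genes passed the limma test, against 9.91% of all rows, and 1 of them, Sufu, had an unadjusted p under 0.05, as did 24.4% of all rows. By the methods' t-test the count was likewise 0 after adjustment and 1 (Sufu) before it. The log2 differences ran from -0.18 for Gli1 up to 0.32 for Sufu, with 3 above 0 and 6 below. Their median was -0.0043, beside a median of -0.014 over all rows. The 95% intervals of the other 8 genes all held 0 and lay between -0.46 and 0.35, that is, between 0.729-fold and 1.27-fold of the WT level. Differences within these intervals could not be told from no difference with 3 arrays a group. An exact permutation test of 3 against 3 arrays cannot give a two-sided p below 0.1.

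**Figure D1:**
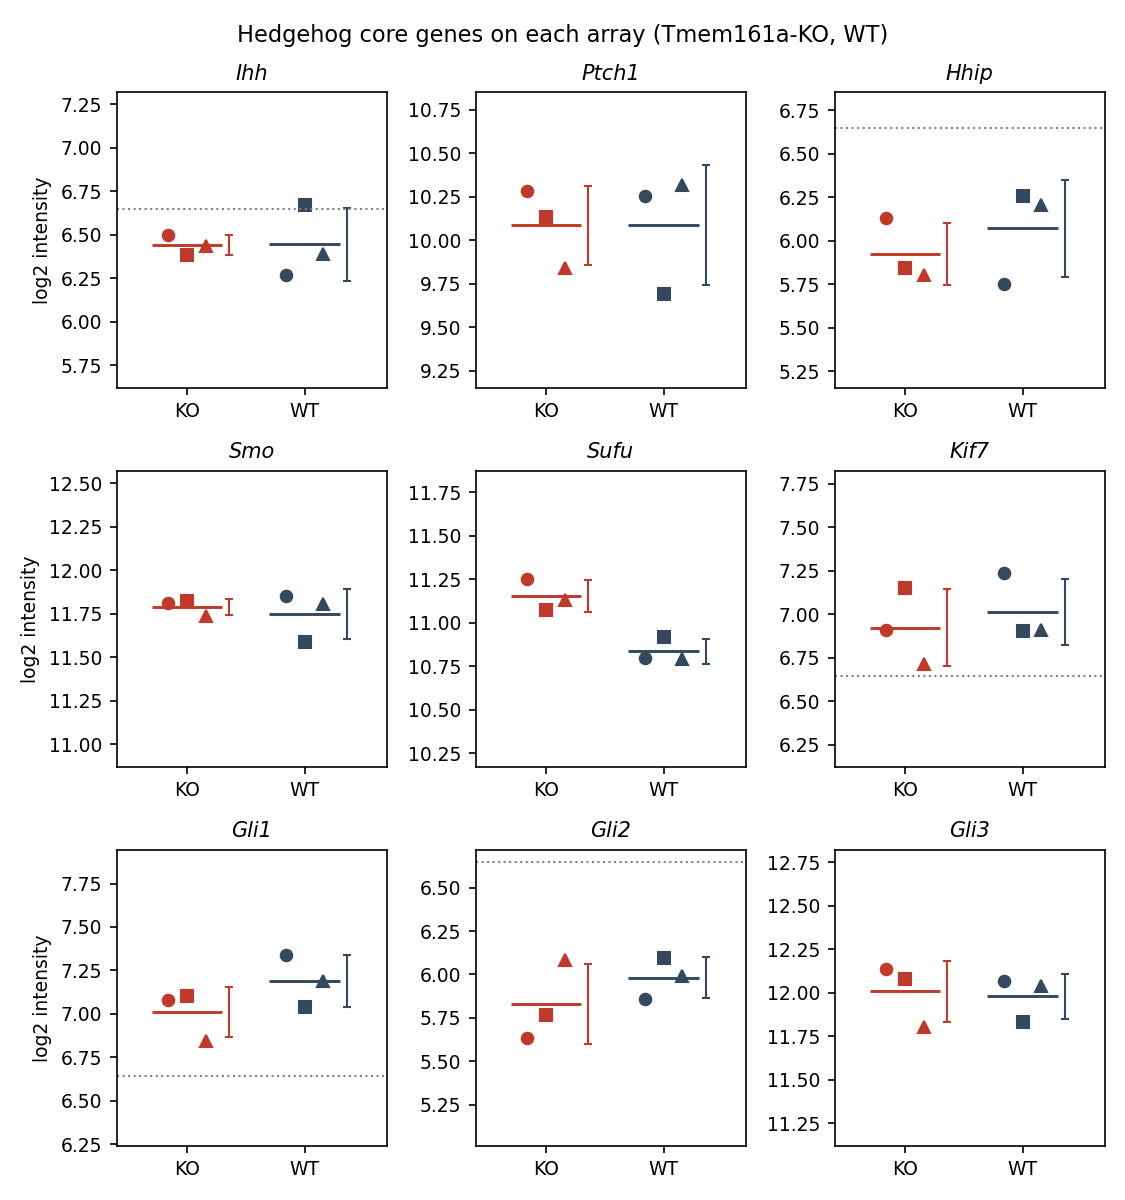
Log2 intensity (vertical axis) of the 9 Hedgehog genes on each array, with Tmem161a-KO in red on the left and WT in dark blue on the right. Circles, squares and triangles are replicates 1, 2 and 3, horizontal lines are group means, bars are 1 SD (n = 3), each panel spans the same range of log2 units, and the dotted line is the 95th percentile of olfactory receptor rows (6.65). In Sufu every Tmem161a-KO array lies above every WT array, while the groups overlap in the other 8 genes.

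Ihh, the Hedgehog ligand of the growth plate, had intensities of 90.6, 83.4 and 86.7 in Tmem161a-KO cells and 77.1, 102 and 84.0 in WT cells. The groups overlapped, and 1 of the 6 arrays, WT replicate 2, lay just above the olfactory percentile. The log2 difference was -0.0043 (adjusted p = 0.990 from limma, standard error 0.12). An intensity this close to background says little about the transcript in either group.

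Ptch1, which encodes the ligand receptor, had intensities of 1246, 1122 and 915 in Tmem161a-KO cells, against 1221, 825 and 1273 in WT cells. The means were 1094 ± 167 in Tmem161a-KO cells and 1106 ± 245 in WT cells (SD, n = 3 each), and the arrays of each group spread over a wider range than the group means were apart. The log2 difference was -0.0015, with a 95% interval from -0.35 to 0.35 (adjusted p = 0.997 from limma). Hhip, which encodes a membrane-bound protein that binds and sequesters Hedgehog ligands, had 70.0, 57.5 and 55.8 in Tmem161a-KO cells and 53.8, 76.6 and 73.7 in WT cells. All 6 Hhip values lay below the olfactory percentile, the groups overlapped, and the log2 difference was -0.15 (adjusted p = 0.589). Smo, which encodes the signal transducer that PTCH1 holds back, had 3590, 3620 and 3407 in Tmem161a-KO cells and 3700, 3078 and 3577 in WT cells. Its log2 difference of 0.040 had a 95% interval from -0.21 to 0.29 (adjusted p = 0.877), and the Tmem161a-KO arrays all lay within the range of the WT arrays.

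Sufu, the inhibitor that binds GLI proteins, showed the largest difference among the 9 genes. Its intensities were 2442, 2159 and 2247 in Tmem161a-KO cells, against 1781, 1939 and 1774 in WT cells. All Tmem161a-KO arrays were above all WT arrays, a separation that 28.9% of all rows showed. The means were 2283 ± 145 in Tmem161a-KO cells and 1831 ± 93.6 in WT cells (SD, n = 3 each), a 1.25-fold difference (0.32 on the log2 scale, 95% interval from 0.078 to 0.56). With an adjusted p of 0.0902 from limma it did not pass the test over all rows. It passed after median centring of the arrays (log2 difference 0.38, adjusted p = 0.0407) but not with quantile normalization (0.24, adjusted p = 0.226). The 4893 brightest rows, among which Sufu, Smo and Gli3 stood, had a median log2 difference of 0.090, and the part of this shift in the value for Sufu was not tested. Kif7, a kinesin of the cilium tip that regulates SUFU and GLI proteins, had 120.1, 142 and 105 in Tmem161a-KO cells and 151, 119.7 and 120.1 in WT cells. These groups overlapped, at a log2 difference of -0.091 (adjusted p = 0.739).

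Gli1, the GLI gene that is itself switched on by the pathway, had intensities of 135, 138 and 115 in Tmem161a-KO cells, against 162, 132 and 146 in WT cells. Every array lay above the olfactory percentile, but the values were low and the groups overlapped. The log2 difference was -0.18, the lowest of the 9 genes, with a 95% interval from -0.44 to 0.082 (adjusted p = 0.402 from limma). The 4893 rows of similar brightness (6.07 to 7.88 on the log2 scale), which also held Ihh and Kif7, had a median log2 difference of -0.10, and its part in the values of these genes was not tested. Gli2, which encodes the main GLI activator, had 49.8, 54.5 and 67.9 in Tmem161a-KO cells and 58.1, 68.3 and 63.7 in WT cells. All 6 values of Gli2 lay below the olfactory percentile, with a log2 difference of -0.15 (adjusted p = 0.526). Gli3, which encodes the main GLI repressor, had 4503, 4336 and 3580 in Tmem161a-KO cells and 4297, 3641 and 4211 in WT cells. The groups overlapped, with means of 4140 ± 492 in Tmem161a-KO cells and 4050 ± 357 in WT cells (SD, n = 3 each), and the log2 difference of 0.028 had a 95% interval from -0.24 to 0.30 (adjusted p = 0.925).

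**Figure D2:**
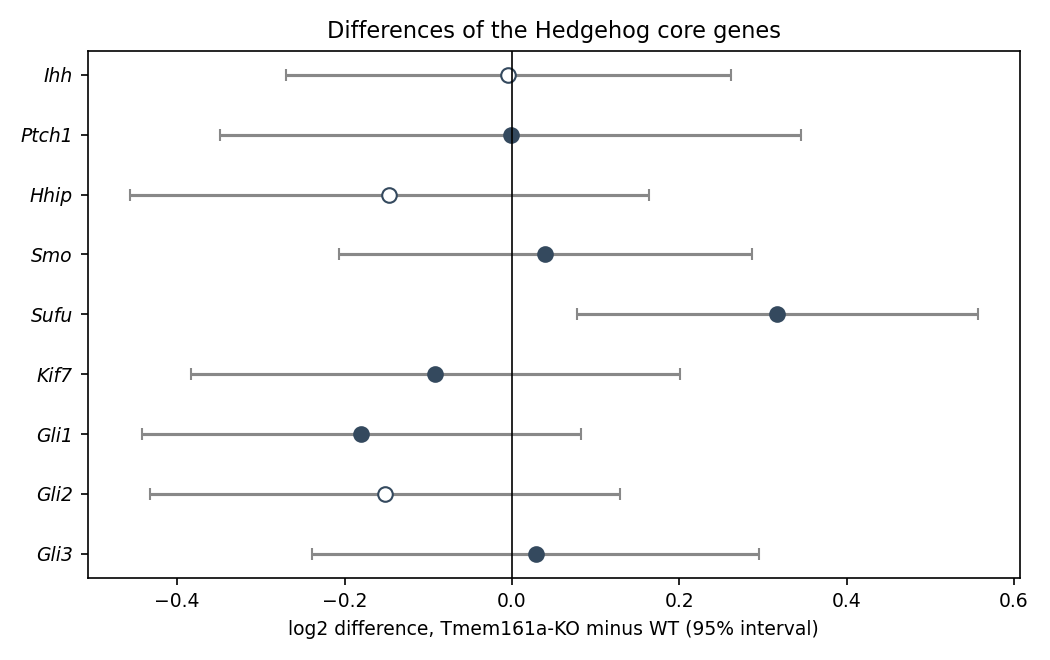
Log2 difference, Tmem161a-KO minus WT (horizontal axis), of the 9 Hedgehog genes with 95% intervals from limma (3 arrays a group). Filled points are genes with a group mean above the olfactory percentile and open points (Ihh, Hhip and Gli2) are not. The interval of Sufu, from 0.078 to 0.56, is the one that leaves out 0, and Sufu does not pass after adjustment over all rows.

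The spread between arrays ran alike in several of these genes. Tmem161a-KO replicate 3 was the lowest of its group and WT replicate 2 the lowest of its group in 5 of the 9, namely Ptch1, Smo, Kif7, Gli1 and Gli3, all of them above background. Of the 6 Hedgehog genes above background 5 had this pattern, beside 12.6% of all rows above background. The pattern was noticed in the values of these same genes and not tested, so its share among them is no measure of enrichment. The difference of Ptch1, which was close to 0, became -0.20 without WT replicate 2, and 0.12, 0.11 and 0.082 without Tmem161a-KO replicate 3, WT replicate 3 and WT replicate 1. None of these passed the test. Because no member passed the test, no genes of similar pattern were looked up.

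Outside these 9 genes, 127 further genes of the pathway and the cilium were measured, of which 11 rose and 3 fell. The share called was 11.0%, beside 9.91% over all rows. Of the 127 genes 120 lay above background, where 14.3% of all rows were called. The clearest change was in Gas1, which encodes a lipid-anchored surface protein that binds Hedgehog ligands and acts with PTCH1 as a co-receptor. Gas1 had intensities of 2110, 2138 and 2107 in Tmem161a-KO cells, against 4816, 4454 and 4070 in WT cells. The groups were far apart, and the Tmem161a-KO arrays lay close together. Gas1 fell by 1.07 on the log2 scale (standard error 0.11, adjusted p = 1.70e-05 from limma), to 0.477-fold of WT with a 95% interval from 0.404 to 0.564. It passed in each of 12 other limma fits (4 with another scaling, variance model or weights, 1 without dim rows, 1 with a replicate block and 6 with an array left out), at log2 differences from -1.16 up to -1.01. These are bulk RNA samples, in which fewer cells that express a gene and less RNA per cell cannot be told apart.

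The other measured receptors and co-receptors (6 genes with Gas1) did not pass, so that 16.7% of the list was called beside 9.91% of all rows. Above background, where 4 of the 6 lay, 14.3% of all rows were called. Boc had 3221, 3430 and 3016 in Tmem161a-KO cells and 3171, 3297 and 3344 in WT cells, at a log2 difference of -0.023 (95% interval from -0.26 to 0.21). Cdon had 5054, 5670 and 6058 in Tmem161a-KO cells and 6417, 6408 and 5796 in WT cells, at -0.15 (adjusted p = 0.463). BOC and CDON are immunoglobulin superfamily proteins that, like GAS1, present Hedgehog ligands to PTCH1. Lrp2 gave 0.35 (adjusted p = 0.0954), and the Gpc3 and Gpc5 rows lay below background.

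Of 8 genes for ligands and their release, Hhat rose and 7 did not pass, a share of 12.5% beside 9.91% of all rows. Above background, where 6 of the 8 lay, 14.3% of all rows were called. HHAT is the acyltransferase that attaches palmitate to Hedgehog ligands. The Hhat row had intensities of 2445, 2802 and 2379 in Tmem161a-KO cells, against 1979, 1902 and 1847 in WT cells, and the groups did not overlap. The difference was 0.41 on the log2 scale (adjusted p = 0.0329 from limma, standard error 0.11). Hhat no longer passed with quantile normalization (adjusted p = 0.0916) or when any array other than Tmem161a-KO replicate 3 was left out (adjusted p up to 0.107). The ligand genes Shh and Dhh were dim, with every array above the olfactory percentile. Shh had 182, 147 and 167 in Tmem161a-KO cells and 207, 206 and 188 in WT cells. Its groups did not overlap, and the log2 difference was -0.28 (adjusted p = 0.154). Dhh had 115, 108 and 116 in Tmem161a-KO cells and 134, 123 and 128 in WT cells, again without overlap (-0.18, adjusted p = 0.329). Groups without overlap were found in 28.9% of all rows. Shh and Dhh were among the 4893 rows from 6.07 to 7.88 on the log2 scale, whose median log2 difference was -0.10. The part of this shift in the values of Shh and Dhh was not tested. Disp1, which encodes the transporter that releases ligands from the cells that make them, had 8622, 9578 and 8126 in Tmem161a-KO cells and 10550, 8340 and 9895 in WT cells (-0.13, adjusted p = 0.588).

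A list headed SMO regulators held 11 measured genes, not all of which act on SMO directly. Of these, Grk3 fell, Iqce rose and 9 did not pass. All 11 lay above background, and the 18.2% called stand beside 14.3% of all rows there. Grk3 encodes a G protein-coupled receptor kinase of the family that phosphorylates SMO. It had 637, 602 and 662 in Tmem161a-KO cells, against 1035, 898 and 971 in WT cells, a difference of -0.61 on the log2 scale (adjusted p = 0.00229 from limma, standard error 0.11). The groups of Grk3 did not overlap, and the gene passed in each of the 12 other fits. Iqce, whose product anchors the EVC complex at the base of the cilium, had 661, 658 and 610 in Tmem161a-KO cells and 477, 531 and 443 in WT cells, at a log2 difference of 0.41 (adjusted p = 0.0326). Iqce did not pass with quantile normalization (adjusted p = 0.0566) or when any array other than WT replicate 2 was left out (adjusted p up to 0.116). Evc and Evc2, which encode the complex itself, differed by 0.031 and -0.020. Gpr161, a ciliary receptor that raises cAMP and restrains the pathway, had 546, 343 and 387 in Tmem161a-KO cells and 386, 382 and 372 in WT cells (0.13, adjusted p = 0.636), and its Tmem161a-KO replicate 1 stood above the other 5 arrays.

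Kinases and ubiquitin ligase subunits that process GLI proteins came to 24 measured genes, of which 3 rose and none fell. All 24 lay above background, and the 12.5% called stand beside 14.3% of all rows there. An unadjusted limma p under 0.05 was found for 6 of the 24, beside 32.4% of all rows above background. The median log2 difference of this list was 0.081, beside 0.016 over all rows above background and 0.090 over the 4893 brightest rows. Not all of the 24 genes were among those brightest rows. Dyrk2, a kinase reported to mark GLI2 for degradation, had 2278, 1912 and 1951 in Tmem161a-KO cells and 1514, 1326 and 1642 in WT cells, at a log2 difference of 0.45 (adjusted p = 0.0289 from limma). The casein kinase 1 genes Csnk1e and Csnk1g1 rose by 0.45 (adjusted p = 0.0450) and 0.41 (adjusted p = 0.0457). Csnk1a1 (0.0021), Csnk1d (0.091), Csnk1g2 (-0.039) and Csnk1g3 (0.34, adjusted p = 0.0776 from limma), of the same family, did not pass. In Dyrk2, Csnk1e and Csnk1g1 the Tmem161a-KO arrays lay above the WT arrays, and 28.9% of all rows had groups without overlap. None of the 3 passed with quantile normalization (adjusted p of 0.0704 for Dyrk2, 0.104 for Csnk1e and 0.117 for Csnk1g1). Leaving out Tmem161a-KO replicate 1 or 3, WT replicate 1 or WT replicate 2 also ended each of these calls, as did leaving out Tmem161a-KO replicate 2 for Csnk1e and WT replicate 3 for Csnk1g1 (adjusted p up to 0.128 for Dyrk2, 0.1885 for Csnk1e and 0.167 for Csnk1g1).

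Of 13 measured genes that are described as GLI targets in some tissues, Bcl2 and Ccnd2 rose and 11 did not pass, a share of 15.4% called beside 9.91% of all rows and 14.3% of those above background. Bcl2, whose product protects cells from apoptosis, had intensities of 3529, 2261 and 2931 in Tmem161a-KO cells, against 1414, 1261 and 1492 in WT cells. The lowest Tmem161a-KO array was well above the highest WT array, with a 2.06-fold higher level (1.05 on the log2 scale, standard error 0.15, adjusted p = 0.000242 from limma). Ccnd2, a D-type cyclin gene, had 22367, 21830 and 21985 in Tmem161a-KO cells and 14099, 13703 and 14871 in WT cells, at a log2 difference of 0.63 (adjusted p = 0.00118). Both genes passed in each of the 12 other fits. Both also respond to many other signals. The list ran from -0.40 for Nkx2-2 up to Bcl2, with a median of -0.076. An unadjusted limma p under 0.05 was found for 7 of the 13, beside 24.4% of all rows and 32.4% of those above background. Of these 7, Bcl2, Ccnd2 and Foxf2 were positive, and Mycn, Foxl1, Foxd1 and Nkx2-2 were negative. Foxl1, Foxd1 and Nkx2-2 were among the 4893 rows from 6.07 to 7.88 on the log2 scale, whose median log2 difference was -0.10. The part of that shift in their values was not tested. Mycn lay below background on all 6 arrays.

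**Figure D3:**
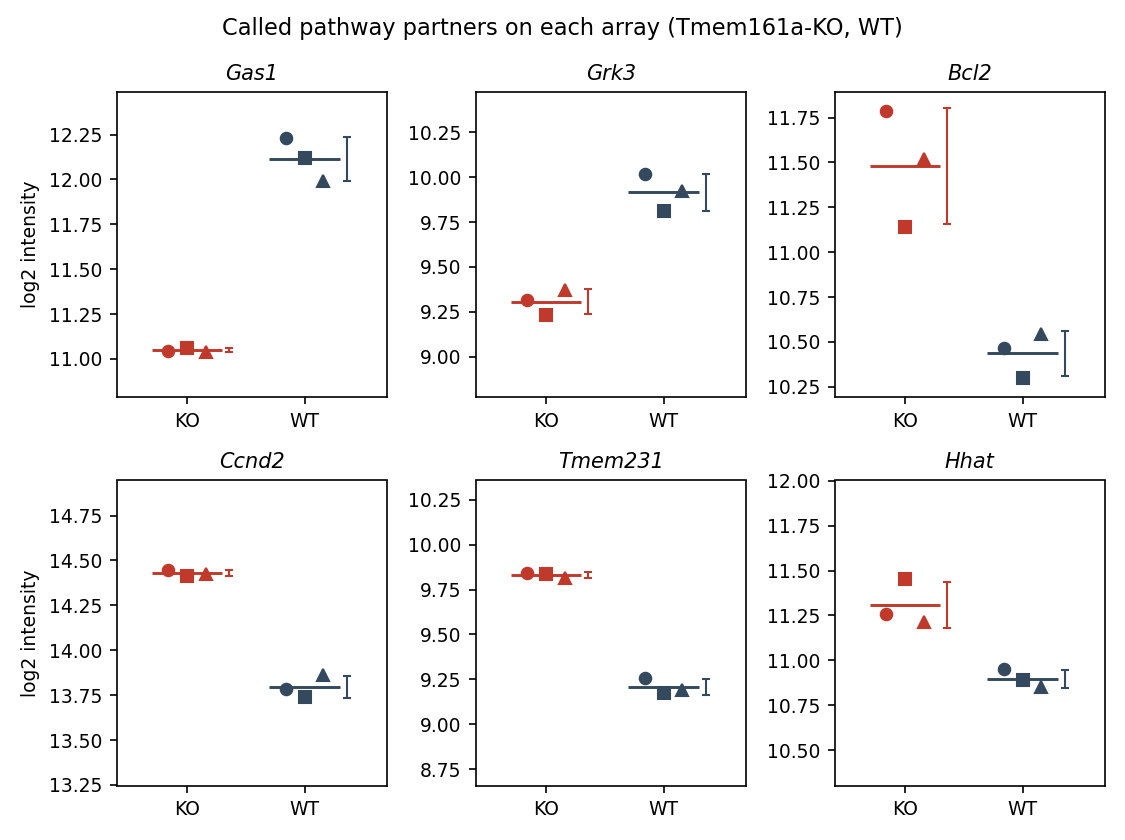
Log2 intensity (vertical axis) of 6 called genes around the pathway on each array, with Tmem161a-KO in red on the left and WT in dark blue on the right. Symbols, means and SD bars (n = 3) are as in the plot of the 9 Hedgehog genes. The groups do not overlap in any of the 6, with Gas1 and Grk3 lower in Tmem161a-KO cells and Bcl2, Ccnd2, Tmem231 and Hhat higher. The 6 were picked from the called genes, and 28.9% of all rows show no overlap. Ift88, which was called although its groups overlap, is not shown.

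The primary cilium list held 65 measured genes, of which 4 rose, 1 fell and 60 did not pass, a share of 7.69% called beside 14.3% of all rows above background, where 64 of the 65 lay. Its median log2 difference was -0.0096, beside -0.014 over all rows and 0.016 over all rows above background. Tmem231, which encodes a membrane protein of the transition zone at the base of the cilium, had 919, 914 and 899 in Tmem161a-KO cells, against 611, 577 and 585 in WT cells. Its groups were well separated, at 0.62 on the log2 scale (adjusted p = 0.00126 from limma, standard error 0.11), and it passed in each of the 12 other fits. The other transition zone genes called were Tctn3 (0.52, adjusted p = 0.0346) and Cep290 (0.49, adjusted p = 0.0326), which rose, and Mks1 (-0.51, adjusted p = 0.0276), which fell. Ift88, which encodes a subunit of the transport complex that builds the cilium, rose by 0.57 (adjusted p = 0.0332), although its groups overlapped, with 449, 402 and 315 in Tmem161a-KO cells and 248, 324 and 217 in WT cells. Ift88 lies on chromosome 14, and the part of the many higher rows there in its value was not tested. The call of Cep290 was lost when any array other than Tmem161a-KO replicate 2 was left out (adjusted p up to 0.1335). Calls were lost for Tctn3 without Tmem161a-KO replicate 2 or 3 or WT replicate 2 or 3 (up to 0.144). They were lost for Mks1 without Tmem161a-KO replicate 2 or 3 or WT replicate 1 or 2 (up to 0.120), and for Ift88 without Tmem161a-KO replicate 1 or 2 or WT replicate 1 or 3 (up to 0.137). Mks1 also failed with quantile normalization (adjusted p = 0.0785).

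**Figure D4:**
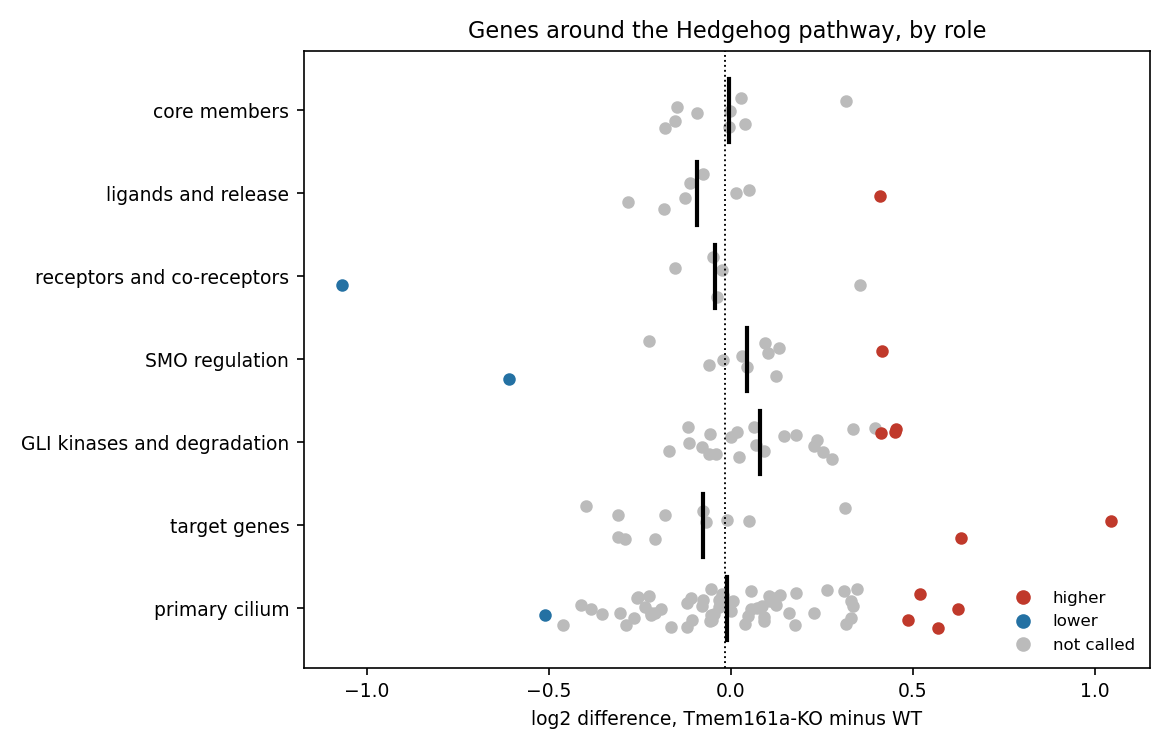
Log2 difference, Tmem161a-KO minus WT (horizontal axis), of the 9 Hedgehog genes (core members) and of 6 lists of genes around the pathway, 1 point a gene, with vertical jitter for display. Red points were called higher, blue lower and grey not called, black bars are list medians, and the dotted line is the median over all named rows (-0.014). No core member is called, and Gas1 (-1.07) and Bcl2 (1.05) lie farthest out.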

How the data were processed

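Processed values of 3 Tmem161a-KO and 3 WT samples were used. The deposited intensities were made by the authors from Clariom S mouse arrays and normalized in GeneSpring. How they corrected background, summarized probes and annotated rows is not stated in what was read. Here the values were turned into log2 without a pseudocount and not normalized again. A model with a mean per group was fitted in R 4.3.3 with limma 3.58.1 (functions lmFit and eBayes), and p-values were adjusted by Benjamini-Hochberg over all 19571 named rows. Rows with no symbol (2634) did not enter, and of a gene on several rows the brightest was used. The model was tested on simulated data. The 9 genes and the lists were chosen with earlier results of these data known. Some genes of the lists were not analysed here. All 9 genes are named, then up to 4 called genes of each list and those central to the pathway. Cep290, Lrp2, Nkx2-2, Foxf2, Foxl1, Foxd1, Gpc3, Gpc5, Csnk1a1, Csnk1d, Csnk1g2 and Csnk1g3 were named after their values were seen. Arrays carry no read depth, and their number limits the precision. The alternatives were quantile normalization, median centring, limma with array weights, robust eBayes along an intensity trend, the methods' t-test, leaving out dim rows, adding unnamed rows, a stricter threshold, a replicate block and fits without 1 array.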

Additional observations from a re-analysis of the deposited data

How the results depend on the processing

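The count of Hedgehog genes called was 0 higher and 0 lower when any array was left out and under every alternative except 2, both through Sufu. Sufu was the 1 gene higher after median centring of the arrays and the 1 gene higher by the methods' t-test without adjustment. Over the whole table that t-test called 2038 rows higher and 1878 lower without adjustment, and 114 and 76 with it, and an adjusted p under 0.01 left 581 and 382. With 1 array left out the counts ran from 729 to 965 higher and from 497 to 703 lower, lowest without WT replicate 2 and next lowest without WT replicate 1 (740 and 515). Quantile normalization gave 0 higher genes among ligands, SMO regulators and GLI kinases, 1 among receptors and 2 lower cilium genes. Median centring gave 5 higher GLI kinase genes and 1 higher receptor gene. Lower cilium genes numbered 2 with an intensity trend or without dim rows, and 3 with array weights or the replicate block. With 1 array left out, higher genes ran from 0 to 2 for GLI kinases, from 0 to 1 for ligands, receptors and SMO regulators and from 1 to 3 for the cilium, with 0 to 3 lower cilium genes. Signs of differences near 0 turned. With quantile normalization the log2 difference was -0.068 for Gli3, -0.047 for Smo, 0.078 for Ihh, 0.0041 for Kif7 and -0.038 for Evc. With median centring it was 0.056 for Ihh, 0.059 for Ptch1, 0.038 for Boc and 0.041 for Evc2, and with array weights 0.011 for Ihh and 0.0056 for Ptch1. With 1 array left out the ranges were -0.046 to 0.13 for Gli3, -0.093 to 0.11 for Ihh, -0.20 to 0.018 for Kif7, -0.20 to 0.12 for Ptch1, -0.040 to 0.092 for Smo, -0.069 to 0.024 for Boc, -0.013 to 0.087 for Evc, -0.062 to 0.0087 for Evc2, and -0.061 to 0.27 for Gpr161. The cause was not tested in any of these. Ihh, Hhip, Gli2 and Mycn have no value without dim rows, which leaves them out. The samples share only a replicate number: deviations of same-numbered samples correlated at 0.110, 0.142 and 0.0246, and 5 of the 6 samples correlated best with their own number, all but WT replicate 3. The replicate block called 1198 genes higher and 853 lower and none of the 9.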
